A study of Mus musculus with 7 samples.

Results

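The 10 transcription factors of effector and tissue regulatory T cells (Tregs) followed here in splenic Tregs were Prdm1, Batf, Irf4, Maf, Gata3, Tbx21, Rora, Nfil3, Id2 and Id3. They were chosen by symbol, and each matched 1 row of the count table, so that they are 10 of its 51138 genes. The RNA came from Tregs of the spleen of C57/BL6 mice that carry a red fluorescent reporter of Foxp3, the factor that defines Tregs. The mice received either 20 ug of FP, a fusion of interleukin-2 (IL-2) with CD25, the alpha chain of its receptor (4 samples), or 100 uL of PBS (3 samples), and the cells were taken after 72 h. All groups share the reporter and the strain. The labels give neither the age of the mice nor the gate of the sort, nor do they say whether samples are different mice. P-values therefore reflect only how these samples vary, and some of that may be technical.

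Effector Tregs arise when resting Tregs receive signals through the antigen receptor and IL-2, and they leave the resting state through a hierarchy of factors. BATF and IRF4 bind DNA together, BATF as a partner of JUN proteins, and drive the effector programme; BLIMP-1, the repressor encoded by Prdm1, marks Tregs that have completed it. GATA3, RORalpha (Rora) and NFIL3 are known from Tregs of tissues, T-bet (Tbx21) from Tregs that control type 1 responses, and c-MAF (Maf) from Tregs that make interleukin-10 or act in follicles and the gut. ID2 and ID3 have no DNA-binding region of their own and hold E proteins away from DNA; ID3 is typical of resting and ID2 of effector lymphocytes.

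Libraries held 9956509 to 13429878 counts. Levels are CPM, counts scaled to a common library size that edgeR's TMM factors (trimmed mean of M values) adjust. FP and PBS were compared with edgeR's quasi-likelihood test over 15954 genes, and a gene was called at a Benjamini-Hochberg adjusted p under 0.05. Of all genes tested, 39.5% were called, 21.0% as higher and 18.5% as lower after FP, and the groups did not overlap in 46.7%. Over all genes the log2 fold change had a median of -0.05. Of 9 Treg markers (Foxp3, Ikzf2, Il2ra, Ctla4, Tnfrsf18, Cd3e, Cd4, Ikzf4 and Nrp1) none was at 0. The same held for the markers of macrophages and monocytes, so it does not by itself settle which cells were sampled. The Treg markers summed to 3606 to 4003 CPM in the PBS libraries and 5478 to 6313 CPM in the FP libraries. Of the 9, 4 were called higher (Ikzf2, Il2ra, Ctla4 and Tnfrsf18) and 0 lower. The other 5 did not pass, among them Foxp3 with a log2 fold change of 0.14, so the higher sum is not a rise of all markers. Markers of macrophages and monocytes moved with the groups: their 15 genes summed to 764 to 1922 CPM after PBS and 25.3 to 142 CPM after FP, and 15 of 15 were called lower. Markers of dividing cells moved the other way, from 179 to 242 CPM after PBS to 1879 to 3589 CPM after FP over 8 genes, with FP replicate 4 the lowest of the FP libraries. The part of either in the values below was not tested, and in bulk RNA more cells of a type and more RNA per cell cannot be told apart.

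Of the 10 factors, 7 rose after FP (Batf, Tbx21, Nfil3, Prdm1, Irf4, Gata3 and Maf) and 0 fell, against 21.0% and 18.5% of all genes tested. Rora, Id2 and Id3 did not pass. The factors were chosen with earlier results of these data known, so these counts are not independent of the data. By edgeR, Id3 alone among the 10 had a fold change below 1 with an unadjusted p under 0.05 (0.0400), and none was called lower by DESeq2 or limma-voom. The rises were modest, from 1.38-fold for Maf to 2.26-fold for Batf. The groups did not overlap in 7 of 10, against 46.7% of all genes; these were the factors that rose, other than Irf4, and Id3. The median log2 fold change of the 10 was 0.56.

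**Figure D1:**
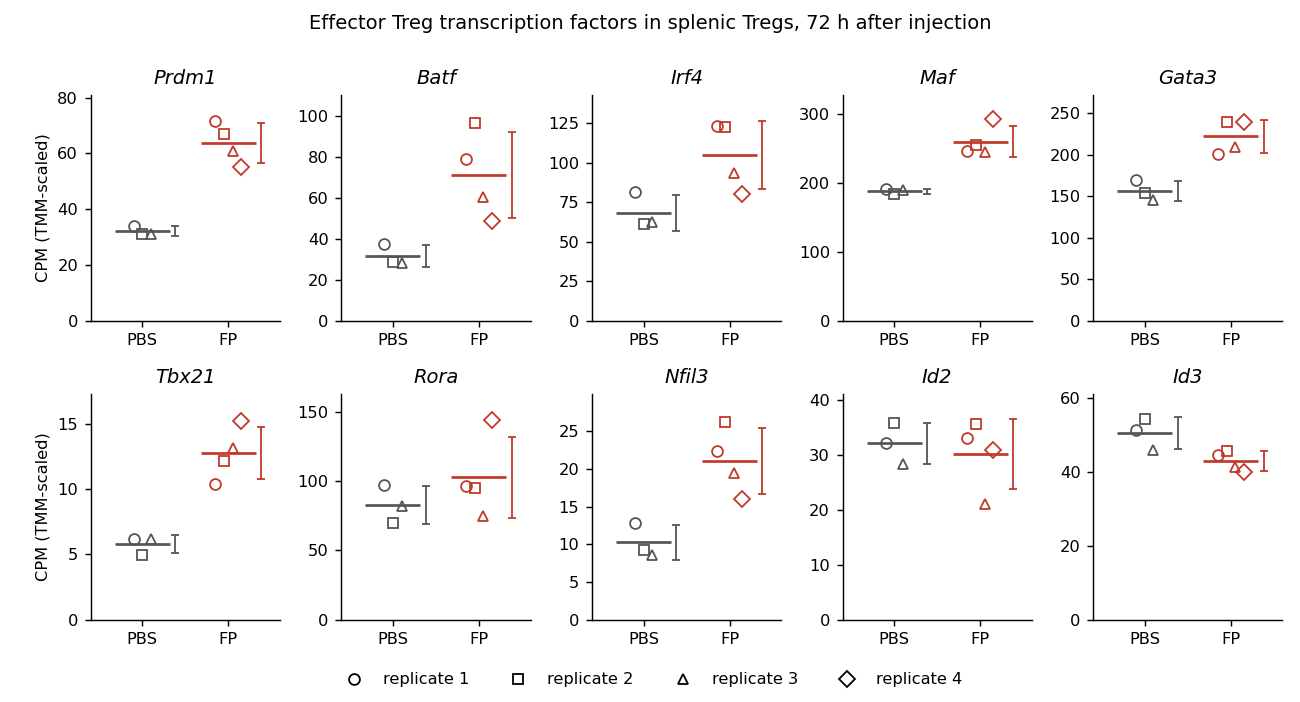
Level of each factor in every library (y axis, TMM-scaled CPM, starting at 0) in the PBS (grey, n = 3) and FP (red, n = 4) groups, with horizontal lines at the means, bars of 1 SD beside them and a symbol for each replicate number. Prdm1, Batf, Nfil3, Irf4 and Id3 are lowest in FP replicate 4 among the FP libraries, while Maf, Tbx21 and Rora are highest there.

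Batf (ENSMUSG00000034266.5, GRCm38 chromosome 12, 85686669 to 85709087, plus strand) encodes a small AP-1 family factor that needs a JUN partner. It measured 37.7, 28.5 and 28.4 CPM in PBS replicates 1 to 3 and 78.9, 96.8, 60.7 and 48.8 CPM in FP replicates 1 to 4. All FP libraries lay above all PBS libraries, but the FP values spread 1.98-fold. The log2 fold change was 1.18 (SE 0.23, edgeR adjusted p = 0.00294), with a PBS mean of 31.5 ± 5.35 CPM (SD, n = 3) and an FP mean of 71.3 ± 21.0 CPM (SD, n = 4).

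Irf4 (ENSMUSG00000021356.9, chromosome 13, 30749226 to 30766976, plus strand), the interferon regulatory factor that cooperates with BATF, had the smallest separation of the factors that rose. Its level was 81.6, 61.1 and 62.3 CPM after PBS and 123, 123, 93.7 and 80.3 CPM after FP, so that FP replicate 4 lay just below PBS replicate 1. The log2 fold change was 0.62 (SE 0.17, edgeR adjusted p = 0.0156). Leaving out PBS replicate 2 (0.55, adjusted p = 0.0697) or PBS replicate 3 (0.55, adjusted p = 0.0729) ended the call.

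Prdm1 (ENSMUSG00000038151.13, chromosome 10, 44437177 to 44528501, minus strand) had the smallest adjusted p of the 10 factors. It measured 34.1, 31.1 and 31.2 CPM after PBS and 71.5, 67.0, 60.7 and 55.3 CPM after FP, and the groups were far apart relative to their spread. The log2 fold change was 0.98 (SE 0.11, edgeR adjusted p = 0.000124), and over the 16 alternative settings it ran from 0.70 to 1.05.

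Nfil3 (ENSMUSG00000056749.7, chromosome 13, 52967209 to 52981073, minus strand), a basic leucine zipper repressor known from cytokine and circadian regulation, was a low transcript. It measured 12.9, 9.31 and 8.58 CPM after PBS and 22.4, 26.3, 19.4 and 15.97 CPM after FP, without overlap. It rose by 1.03 on the log2 scale (SE 0.21, edgeR adjusted p = 0.00309).

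Prdm1, Batf, Irf4 and Nfil3 each had their lowest FP value in replicate 4 and their highest PBS value in replicate 1. Id3 was lowest in FP replicate 4 too, so that 5 of the 10 factors were, against 31.9% of all genes tested. Maf, Gata3 and Rora were also highest in PBS replicate 1, so that 7 of the 10 were, against 37.3% of all genes tested. The JUN family genes Junb and Jun, which encode partners of BATF, were unequal between libraries of a group: Junb measured 431 CPM in PBS replicate 1 against 234 and 233 CPM in the others, and 351, 375, 193 and 188 CPM in FP replicates 1 to 4. Jun, chosen after its values were seen, measured 168 CPM in PBS replicate 1 and 94.4 and 94.6 CPM in the others, and 139, 150, 81.3 and 64.5 CPM after FP. Mki67, the proliferation marker, measured 1363, 1553, 1409 and 817 CPM in FP replicates 1 to 4. The libraries with the least Batf and Irf4 after FP were thus also those with the least Junb and Jun, and the part of either in the level of the factors was not tested.

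The sequences just before the start of these factors show how they differ. RefSeq (GRCm38.p6) gave a promoter for 9 of the 10 factors, and none for Maf. The 250 bases before each start were searched on both strands for TTCNNNGAA (the site of STAT factors, which carry the IL-2 signal), TGANTCA (AP-1, the site of BATF with JUN), the motif of interferon regulatory factors (a pair of GAAA cores with any 2 bases between them), TTACGTAA (NFIL3) and CAGCTG (an E-box, the site of E proteins). No listed match overlapped another. The bases searched include some that GENCODE places in an exon: all 250 for Id3, 161 for Id2, 51 for Batf, 34 for Nfil3 and 7 for Irf4. Of the 9, 0 held TTCNNNGAA (7.02% of all 32851 promoters), 1 held TGANTCA (6.75%), 0 held the motif of interferon regulatory factors (2.98%), 0 held TTACGTAA (0.113%) and 2 held CAGCTG (4271 promoters of all 32851). The single AP-1 match was in Prdm1, 48 to 42 bases before the start, and the E-box matches were in Nfil3 and Id2. Bcl6, the factor that opposes BLIMP-1, has 2 promoters in the table, with TTCNNNGAA 1 time in the first and 3 times in the other. TTCNNNGAA was also found before a start of Bach2 and of Irf8, which are compared with the factors below. The promoters of Prdm1, Batf, Irf4 and Nfil3, and the Bcl6 promoter with 3 matches, are shown from 5′ to 3′ with matches in capitals, without bases that GENCODE places in an exon.
Prdm1 (chr10:44458749-44458998, minus strand): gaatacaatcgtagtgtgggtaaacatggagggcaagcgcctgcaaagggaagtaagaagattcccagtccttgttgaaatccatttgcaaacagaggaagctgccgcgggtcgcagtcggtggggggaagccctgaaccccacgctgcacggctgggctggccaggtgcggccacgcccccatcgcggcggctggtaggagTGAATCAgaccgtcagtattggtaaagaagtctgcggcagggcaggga
Batf (chr12:85686470-85686668, plus strand): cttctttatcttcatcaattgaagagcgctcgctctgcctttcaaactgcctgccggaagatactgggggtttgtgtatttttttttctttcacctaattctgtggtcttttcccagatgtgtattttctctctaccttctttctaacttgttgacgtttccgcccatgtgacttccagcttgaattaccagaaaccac
Irf4 (chr13:30748983-30749225, plus strand): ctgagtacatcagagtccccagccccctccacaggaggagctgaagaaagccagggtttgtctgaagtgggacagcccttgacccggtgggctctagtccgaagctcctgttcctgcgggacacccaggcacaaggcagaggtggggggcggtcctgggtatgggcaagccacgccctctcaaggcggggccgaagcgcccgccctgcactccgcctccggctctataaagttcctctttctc
Nfil3 (chr13:52981074-52981289, minus strand): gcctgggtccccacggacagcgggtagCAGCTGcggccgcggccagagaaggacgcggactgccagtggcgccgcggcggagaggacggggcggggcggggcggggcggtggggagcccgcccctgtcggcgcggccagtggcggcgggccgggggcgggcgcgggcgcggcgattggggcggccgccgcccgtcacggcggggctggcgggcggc
Bcl6 (chr16:23981284-23981533, minus strand): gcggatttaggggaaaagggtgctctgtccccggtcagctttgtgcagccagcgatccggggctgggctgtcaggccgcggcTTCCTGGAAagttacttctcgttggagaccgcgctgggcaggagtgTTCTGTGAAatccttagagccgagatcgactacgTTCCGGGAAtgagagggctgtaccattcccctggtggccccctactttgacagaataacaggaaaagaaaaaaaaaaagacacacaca
The bases alone differ widely: 46.4% of the 250 bases before the Batf start and 81.6% of those before the Nfil3 start are G or C, against a median of 52.4% over all promoters. A match is a run of letters and not a measured binding site.

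Among the factors that specify Treg subsets, Tbx21 (ENSMUSG00000001444.2, chromosome 11, 97098071 to 97115331, minus strand), which encodes T-bet, rose most. It measured 6.18, 4.98 and 6.22 CPM after PBS and 10.4, 12.2, 13.2 and 15.2 CPM after FP. The groups did not overlap, and the highest FP value was in replicate 4. Tbx21 rose by 1.14 on the log2 scale (SE 0.18, edgeR adjusted p = 0.000917). It was also the least counted factor, with 68 counts in PBS replicate 2.

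Gata3 (ENSMUSG00000015619.10, chromosome 2, 9857078 to 9890034, minus strand), the factor of type 2 responses and tissue Tregs, measured 169, 154 and 146 CPM after PBS and 201, 240, 210 and 239 CPM after FP. No FP library reached down to the PBS values. Gata3 rose by 0.51 on the log2 scale (SE 0.10, edgeR adjusted p = 0.00263). Gata3 overlaps the antisense gene Gm13256, 4930412O13Rik on the other strand and 9230102O04Rik on its own. These held at most 42, 12 and 11 counts in a library, against 1662 or more for Gata3.

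Maf (ENSMUSG00000055435.6, chromosome 8, 115682942 to 115707794, minus strand) was the most counted of the 10 factors. It measured 191, 183 and 189 CPM after PBS, the closest agreement of any of the factors, and 246, 255, 245 and 292 CPM after FP. It rose by 0.47 on the log2 scale (SE 0.09, edgeR adjusted p = 0.00261). Its antisense neighbour Gm15655 had 0 counts in every library. Maf is also a macrophage factor. The macrophage sum was 764, 1922 and 1349 CPM in PBS replicates 1 to 3, and its part in the level of Maf was not tested.

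Rora (ENSMUSG00000032238.17, chromosome 9, 68653786 to 69388246, plus strand) encodes a nuclear receptor that is prominent in Tregs of skin and other tissues. It measured 97.3, 69.9 and 82.0 CPM after PBS and 96.6, 95.2, 74.9 and 144 CPM after FP. The groups overlapped, and FP replicate 4 stood above all other libraries. The log2 fold change of 0.31 (SE 0.20, edgeR adjusted p = 0.258) had a 95% interval from -0.15 to 0.77, so that a rise of the size seen for Irf4 lies within it. Gm15511 on its other strand held at most 44 counts in a library, against 818 or more for Rora.

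The ID genes did not share the rise. Id2 (ENSMUSG00000020644.8, chromosome 12, 25093799 to 25097140, minus strand) measured 32.2, 35.7 and 28.4 CPM after PBS and 33.0, 35.6, 21.0 and 30.9 CPM after FP. FP replicate 3 was the lowest of all libraries, and the others lay within the PBS range or close to it. The log2 fold change was -0.09 (SE 0.17, edgeR adjusted p = 0.698), with a 95% interval from -0.48 to 0.29, which leaves out the log2 fold changes of 0.47 to 1.18 of the factors that rose. Without FP replicate 3 it turned to 0.047.

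Id3 (ENSMUSG00000007872.3, chromosome 4, 136143497 to 136145755, plus strand) measured 51.4, 54.4 and 46.1 CPM after PBS and 44.7, 45.8, 41.5 and 40.2 CPM after FP. All FP libraries lay below all PBS libraries, by 0.24 on the log2 scale (-0.24, SE 0.10, 95% interval -0.46 to -0.01), and the gene missed the threshold (edgeR adjusted p = 0.0863). With other scalings it was called lower, as given with the scalings.

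How libraries are scaled decided the call for 3 of the 10 factors. TMM factors gave a median of -0.05 over all genes (log2 fold change), upper-quartile factors gave -0.25 and unadjusted library size gave -0.31, and the share of higher genes among those called was 53.2%, 33.2% and 28.6%. Maf measured 0.27 (adjusted p = 0.0636) and 0.21 (adjusted p = 0.229) under the latter scalings and did not pass. Gata3 passed with upper-quartile factors (0.31, adjusted p = 0.0306) and not with library size alone (0.25, adjusted p = 0.135). Id3 was called lower under both, with -0.44 (adjusted p = 0.00269) and -0.51 (adjusted p = 0.00274). Relative to the median of all genes, Maf stood at 0.52, Gata3 at 0.56 and Id3 at -0.18 with TMM factors. Scaling moves all genes nearly alike, so these differences were almost the same under the scalings above and say nothing of stability. With library size over nuclear protein-coding genes they were 0.45, 0.49 and -0.26. Batf, Tbx21, Nfil3, Prdm1 and Irf4 rose under all of these scalings.

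**Figure D2:**
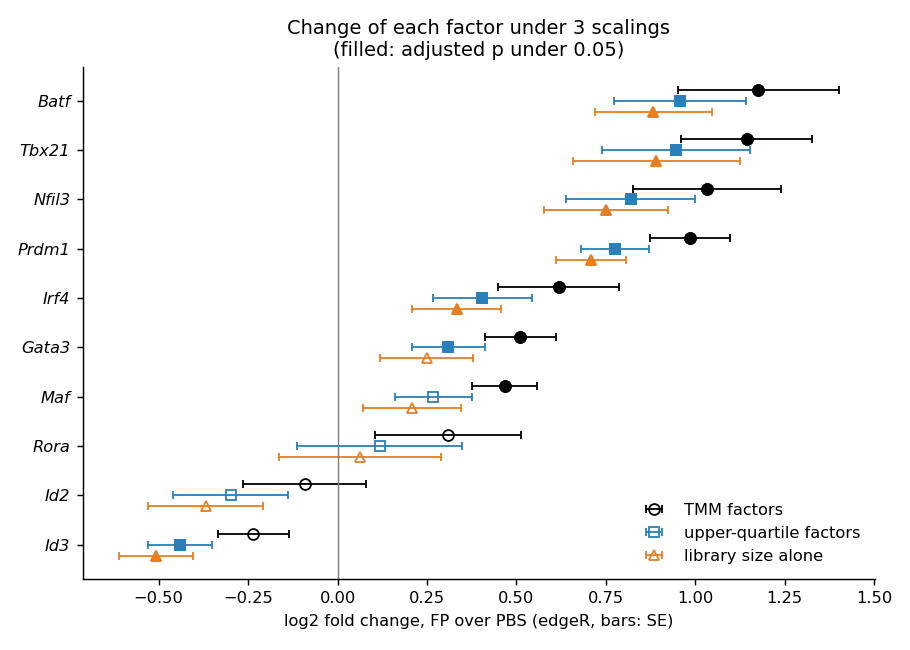
Log2 fold change (x axis, FP over PBS) of each factor (y axis) in the edgeR test with TMM (circles), upper-quartile (squares) and library-size (triangles) scaling, with bars of 1 SE; filled symbols passed an adjusted p of 0.05. The 5 factors at the top are filled under every scaling, and Gata3, Maf and Id3 change between filled and open.

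Levels of different genes were compared per kilobase of merged exons. After PBS the order was Gata3 at 39.3 ± 3.06 CPM per kilobase (SD, n = 3), Id3 at 28.3 ± 2.36, Maf at 22.8 ± 0.458, Batf at 22.4 ± 3.81, Irf4 at 13.9 ± 2.35, Id2 at 13.2 ± 1.50, Rora at 6.35 ± 1.05, Prdm1 at 5.76 ± 0.307, Nfil3 at 5.07 ± 1.14 and Tbx21 at 2.33 ± 0.282. The PBS ranges of neighbours overlapped for Maf and Batf, Irf4 and Id2, Rora and Prdm1, and Prdm1 and Nfil3, and not for the other neighbours. After PBS Gata3 thus had the highest transcript level per kilobase of the 10 and Tbx21 the lowest.

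After FP, Gata3 measured 55.9 ± 5.03 CPM per kilobase (SD, n = 4) and Batf 50.7 ± 15.0, and their ranges overlapped. Id3 moved from the second to the fourth place of the order at 24.0 ± 1.49 CPM per kilobase, behind Maf at 31.5 ± 2.68, from which its range was separate. Rora, at 7.86 ± 2.24, lay below Prdm1 at 11.4 ± 1.27 and Nfil3 at 10.4 ± 2.16, although its range overlapped those of both and of Tbx21 at 5.12 ± 0.800. With the longest transcript of each gene in place of merged exons, Batf came before Gata3 after FP, and after PBS Batf came before Maf and Id2 before Irf4.

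**Figure D3:**
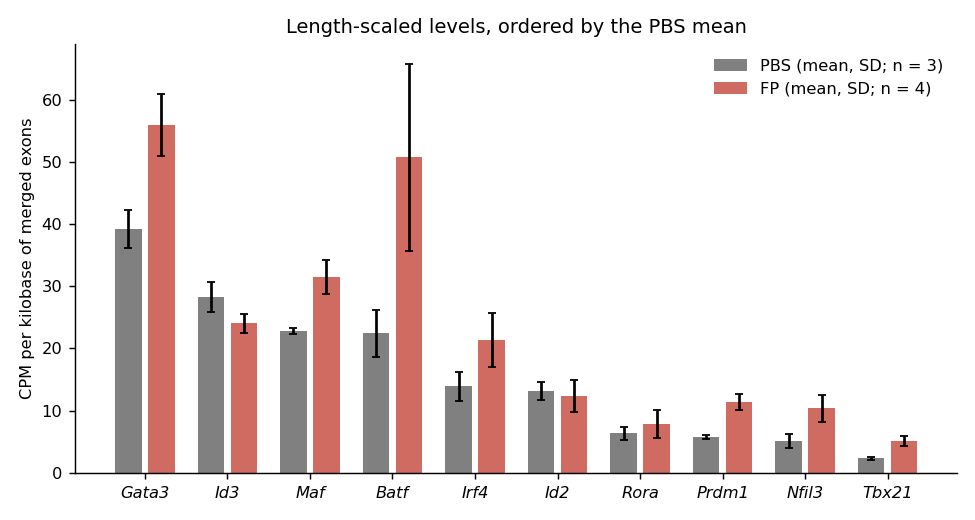
Mean level of each factor (y axis, TMM-scaled CPM per kilobase of merged exons, starting at 0) after PBS (grey, n = 3) and FP (red, n = 4), with bars of 1 SD, in the order of the PBS means. Gata3 has the highest mean in both groups, and the Batf bar rises from 22.4 to 50.7.

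Most of the listed factors that oppose the effector programme fell. Of 8 listed factors of the resting state (Bach2, Bcl6, Tcf7, Lef1, Foxo1, Foxp1, Satb1 and Klf2), 6 fell, 0 rose and 2 missed the threshold. Their median log2 fold change was -0.49, against -0.05 for all genes, of which 18.5% were lower and 21.0% higher. With any 1 library left out, 5 were lower. This list too was drawn up with earlier results of these data known, so its counts are not independent of the data. Bcl6, the repressor that BLIMP-1 antagonises, measured 42.2, 39.3 and 40.8 CPM after PBS and 10.5, 13.5, 21.9 and 17.0 CPM after FP, a log2 fold change of -1.37 (SE 0.20, edgeR adjusted p = 0.000603). Bach2, which competes with BATF for AP-1 sites, measured 190 ± 4.16 CPM after PBS (SD, n = 3) and 113 ± 8.70 CPM after FP (SD, n = 4). Tcf7, which encodes the stem-like factor TCF-1, fell by 0.89 and Foxp1 by 0.58 on the log2 scale. Klf2, a factor of lymphocyte trafficking, measured 0.23 on the log2 scale with TMM factors and -0.043 with library size alone, and was called higher without PBS replicate 1 (0.35, adjusted p = 0.0304) and with a replicate block on replicates 1 to 3 (0.28, adjusted p = 0.0404). Lef1 missed the threshold with TMM factors (-0.19), and was called lower under upper-quartile scaling (-0.39) and with library size alone (-0.46).

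Ratios of counts within a library do not depend on scaling, and 5 were compared between the groups by exact permutation (two-sided) of the libraries, whose 35 assignments allow a smallest p of 0.0286. The ratio of Prdm1 to Bach2 was 0.177, 0.168 and 0.162 after PBS and 0.706, 0.604, 0.511 and 0.460 after FP. Every FP library lay above every PBS library, a 3.33-fold difference (exact permutation p = 0.0286, 0.0357 adjusted over 5 ratios). The ratio of Prdm1 to Bcl6 was below 1 in each PBS library (0.808, 0.791 and 0.764) and above 1 in each FP library (6.76, 4.95, 2.77 and 3.24), a 5.28-fold difference with the same p-values. Prdm1 was higher, and Bach2 and Bcl6 lower, in every FP library than in every PBS library. Separation of these ratios was thus fixed by the changes of the single genes, and their p-values add no further evidence. Irf4 to Irf8, a related factor of B cells and myeloid cells, was 2.28, 1.19 and 1.40 after PBS and 3.75, 3.66, 2.78 and 3.02 after FP, 2.10-fold higher with the same p-values. Irf8 itself measured 35.8, 51.4 and 44.6 CPM in PBS replicates 1 to 3, in the order of the macrophage sum, and 26.6 to 33.7 CPM after FP. Of all genes tested, 31.1% were likewise highest in PBS replicate 2. The part of macrophages in the level of Irf8 was not tested.

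Gata3 and Tbx21 both rose, but not equally. Their ratio was 27.2, 30.6 and 23.3 after PBS and 19.2, 19.7, 15.9 and 15.7 after FP, lower in every FP library, with a log2 difference of -0.62 (exact permutation p = 0.0286, 0.0357 adjusted). The ratio of Id2 to Id3 did not separate the groups. It was 0.626, 0.657 and 0.616 after PBS and 0.738, 0.777, 0.506 and 0.769 after FP, with FP replicate 3 below all PBS libraries and the other FP libraries above them (log2 difference 0.12, exact permutation p = 0.600, 0.600 adjusted).

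**Figure D4:**
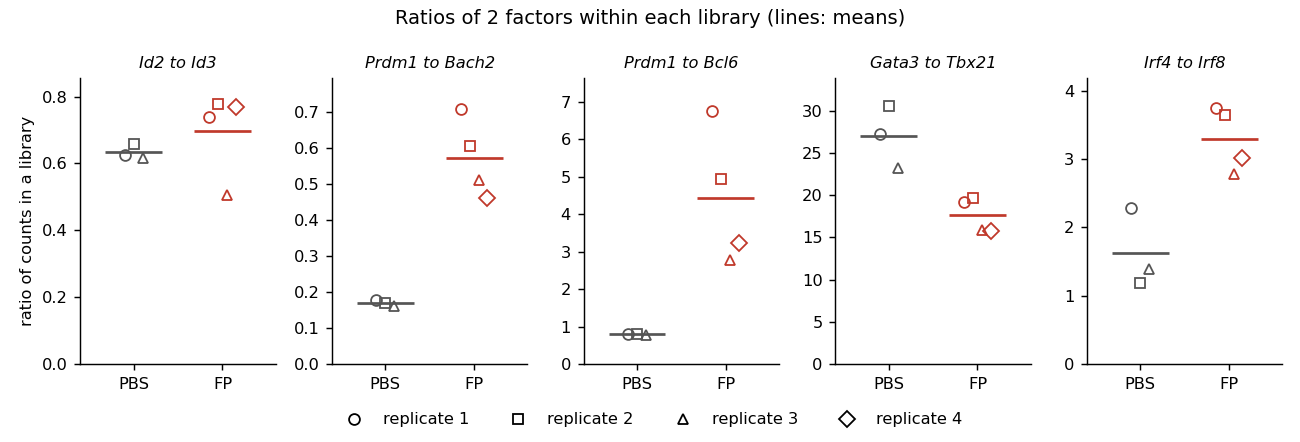
Ratio of the counts of 2 factors in each library (y axis, starting at 0) in the PBS (grey, n = 3) and FP (red, n = 4) groups, with lines at the means and a symbol for each replicate number. The groups are separate in every panel except Id2 to Id3, where FP replicate 3 lies below the PBS libraries.

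The tested partners and relatives of BATF and IRF4 were called at a share near that of all genes, 2 of 6 against 39.5%. Of 9 listed partners and relatives of BATF and IRF4 (Junb, Jund, Jun, Fosl2, Batf2, Batf3, Irf8, Irf2 and Irf2bp2), 6 were tested, 0 rose, 2 fell (Irf8 by 0.47 and the corepressor gene Irf2bp2 by 0.41 on the log2 scale) and 4 did not pass, against 21.0% higher and 18.5% lower of all genes tested. With a replicate block on replicates 1 to 3, 1 of the 6 was called higher, Fosl2, named after its values were seen. The call of Irf8 was lost when PBS replicate 2 (-0.34, adjusted p = 0.128) or PBS replicate 3 (-0.46, adjusted p = 0.0762) was left out. Junb had a log2 fold change of -0.11 (SE 0.33) and Irf2 of 0.06, and both turned sign under alternatives. Jund was listed at 0 counts in every library but FP replicate 1, which held 1. Overlap with other genes was not examined for Jund, so these counts do not show that it was absent. Batf2, below the filter on low counts, measured at most 0.880 CPM. Batf3, also below it, held 9, 23 and 17 counts after PBS and 1, 0, 1 and 1 after FP, lower as the dendritic cell and macrophage markers were, and their part in this was not tested.

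Among the E proteins, the targets of ID2 and ID3, Tcf4 fell by 1.80 on the log2 scale, from 12.8, 17.8 and 16.2 CPM after PBS to 4.08, 4.79, 3.85 and 5.13 CPM after FP. Within the PBS group Tcf4 was highest in the library with the largest macrophage sum, as were 31.1% of all genes tested. The part of macrophages in its fall was not tested. The more abundant Tcf12 (0.21, adjusted p = 0.0769) and Tcf3 (0.21, adjusted p = 0.112) did not pass, and both were below 0 with library size alone (-0.056 and -0.051). Tcf12 was called higher without FP replicate 4 (0.24, adjusted p = 0.0459), without PBS replicate 1 (0.29, adjusted p = 0.0448) and with the replicate block (0.25, adjusted p = 0.0435), and Tcf3 without FP replicate 1 (0.29, adjusted p = 0.0206). Id1 and Id4 were not tested and measured at most 0.883 and 0.0888 CPM.

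Other relatives of the 10 factors were a mixed group: of 12 listed, 10 were tested, 2 rose, 5 fell and 3 did not pass, against 21.0% and 18.5% of all genes. Eomes, the relative of T-bet that is typical of natural killer and CD8 T cells, fell by 2.12 on the log2 scale, from 4.15, 3.30 and 4.20 CPM to 0.430, 0.977, 1.47 and 0.642 CPM. These are low levels, with 4, 11, 16 and 9 counts in FP replicates 1 to 4. The natural killer marker sum was also lower after FP, and the CD8 T cell sum overlapped between the groups. The part of these cells in the fall of Eomes was not tested. Tef, a basic leucine zipper factor that binds the same sites as NFIL3, fell by 0.83, as Nfil3 rose. Mafg, a small MAF protein gene, did not pass (0.29, adjusted p = 0.0786).

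Effector genes that lie in the reach of IRF4, BATF, BLIMP-1 and c-MAF mostly rose. Of 14 listed, 10 rose, 3 fell and 1 missed the threshold, against 21.0% and 18.5% of all genes. Their median log2 fold change was 1.13. The granzyme gene Gzmb had the largest change, from 2.01 to 4.68 CPM after PBS to 541 to 882 CPM after FP. Ccr4, a chemokine receptor of skin homing, had a mean of 42.9 ± 7.22 CPM after PBS (SD, n = 3) and rose to 132 ± 13.8 CPM after FP (SD, n = 4). Cd83, an activation marker, fell by 2.59 on the log2 scale. The follicular receptor gene Cxcr5 did not pass (0.29, adjusted p = 0.119), but was called higher without FP replicate 4 (0.38, adjusted p = 0.0245) and with the replicate block (0.38, adjusted p = 0.0124). Many of these genes were known to move in these data when the list was drawn up, so the count is not independent of the factors.

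The genes tied to T-bet and those tied to GATA3 and RORalpha were counted separately, and the difference between the lists was not tested. Both lists were drawn up with earlier results of these data known. Of 10 type 1 genes, 9 were tested, 5 rose, 1 fell and 3 missed the threshold, against 21.0% higher and 18.5% lower of all genes, and the median was 0.79. Cxcr3, a direct target of T-bet, rose by 0.79 (SE 0.15), with 28.7 to 38.9 CPM after PBS and 45.9 to 69.7 CPM after FP, and like Tbx21 it was highest in FP replicate 4. Il18rap, a chain of the interleukin-18 receptor, rose by 1.05. Stat4 (0.17) and Cxcr6 (-0.25) did not pass, though Cxcr6 was called lower with library size alone (-0.52, adjusted p = 0.0335), and Stat4 was below 0 under upper-quartile scaling (-0.037) and with library size alone (-0.11).

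Of 11 tissue and type 2 genes, 8 were tested, 1 rose, 2 fell and 5 missed the threshold, shares near the 21.0% and 18.5% of all genes, and the median was -0.11. Il1rl1, the interleukin-33 receptor gene that GATA3 supports, measured 48.2, 25.0 and 36.4 CPM after PBS and 113, 155, 115 and 159 CPM after FP, and rose by 1.89 (log2, SE 0.22). Pparg and Ccr3 fell by 2.53 and 2.52. Within the PBS group both were highest in replicate 2 and lowest in replicate 1, the order of the macrophage sum. Of all genes tested, 31.1% were likewise highest in PBS replicate 2. The part of macrophages in the falls of Pparg and Ccr3 was not tested. Il9r measured 12.8 to 19.4 CPM after PBS and 17.9 to 33.9 CPM after FP and did not pass (0.59, adjusted p = 0.0640). It was called higher by DESeq2 (adjusted p = 0.0363), without the filter on low counts (adjusted p = 0.0445) and without FP replicate 1 (adjusted p = 0.0263). Nt5e, an ectoenzyme gene, did not pass (-0.13, adjusted p = 0.350), but was called lower with upper-quartile factors (-0.34, adjusted p = 0.00913) or unadjusted library size (-0.41, adjusted p = 0.00606). Il5, Il13 and Nmur1 were not tested and measured at most 0.428 CPM, and Il4, which was tested, at most 1.40 CPM.

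**Figure D5:**
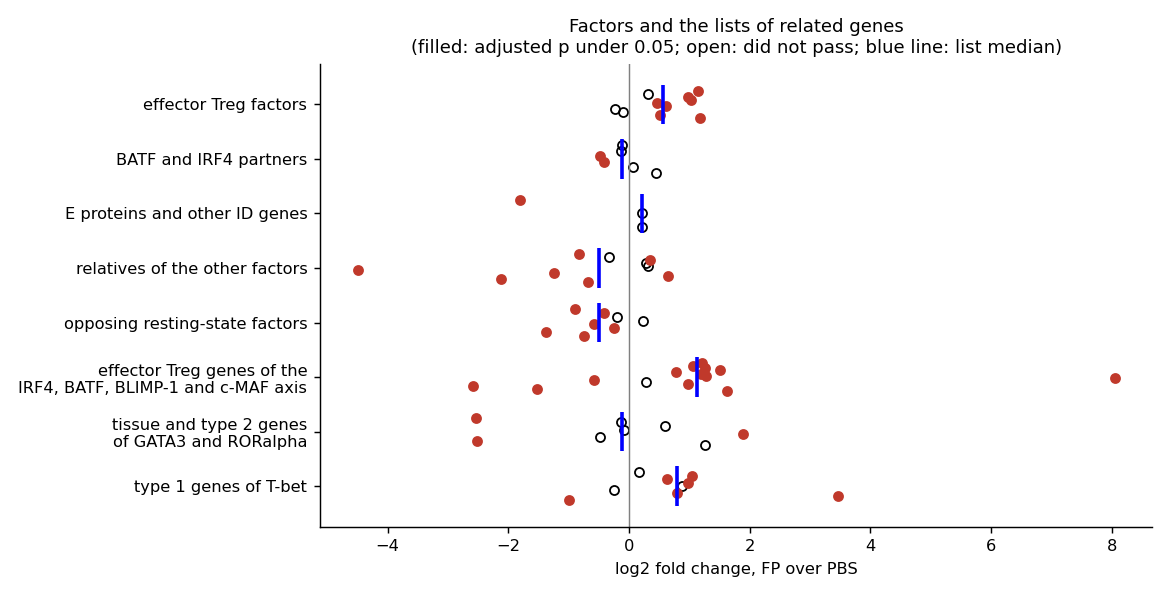
Log2 fold change (x axis, FP over PBS, edgeR with TMM factors) of every tested gene in the 10 factors and in each list of related genes (y axis); filled points passed an adjusted p of 0.05, open points did not, and blue lines are list medians. The factors and the effector and type 1 genes have medians above 0 (0.56, 1.13 and 0.79), and the factors of the resting state have a median of -0.49.

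Several of the 10 factors are also used by other cells of the spleen, so markers of those cells were read beside them. Prdm1 and Irf4 are high in plasma cells, whose 6 markers summed to 3.97 to 6.74 CPM after PBS and 4.26 to 5.80 CPM after FP, with Tnfrsf17 at 0 in every library. Tbx21 and Id2 are high in natural killer cells, whose 6 markers summed to 0.806 to 2.01 CPM after PBS and 0.0916 to 0.645 CPM after FP, with Klra8 and Klra4 at 0 in every library. Within the PBS group this sum (1.41, 0.806 and 2.01 CPM in replicates 1 to 3) had the order of Tbx21, which was nearly equal in replicates 1 and 3 (6.18 and 6.22 CPM). Id2 had another order, lowest in replicate 3, where this sum was highest. Id3 and Irf4 are used by B cells, whose 10 markers summed to 35.2 to 64.1 CPM after PBS and 31.4 to 40.2 CPM after FP; 4 of them were called lower and Cd79b higher. Id2 and Irf4 are used by dendritic cells, whose 8 markers summed to 24.4 to 36.3 CPM after PBS and 11.7 to 15.7 CPM after FP. Markers of CD8 T cells (2 genes) summed to 8.93 to 9.80 CPM after PBS and 7.84 to 12.9 CPM after FP, those of neutrophils (8 genes) to 0.613 to 0.953 CPM and 0.967 to 2.11 CPM, and those of erythroid cells (7 genes) to 12.7 to 30.0 CPM and 10.1 to 28.4 CPM. Of 10 marker sums, 0 passed after adjustment, since the smallest exact permutation p of 0.0286 became 0.0571 for the 5 that reached it (Treg, macrophage, natural killer, dendritic and dividing cells). Within the PBS group Id2 and Id3 were both highest in replicate 2, the library with the largest macrophage sum, as were 31.1% of all genes tested. Both were lowest in replicate 3, whereas the macrophage sum was lowest in replicate 1. The part of these cells in the level of the factors was not tested.

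For each factor that rose, the genes with the most similar course over the 7 libraries were found among 11865 others, by the root mean square difference of log2 CPM after each gene was centred on its own mean. The closest to Prdm1 were Hpf1 (0.0519) and Fam118b (0.0643). Batf lay closest to Cox4i1 (0.0583) and Ndufs6 (0.0757), which encode subunits of the respiratory chain, and Nfil3 to Eif3h (0.0724), a translation initiation factor gene, and the chaperonin gene Cct2 (0.0748). The nearest genes to Irf4 were Hspa13 (0.0450) and the RNA polymerase gene Polr2g (0.0501). Maf lay nearest to Scyl2 (0.0584) and the Polycomb gene Phc3 (0.0633), Gata3 to Prkx (0.0413) and Cpox (0.0511), and Tbx21 to Myo1f (0.0803) and the drug efflux gene Abcb1a (0.114). These distances describe 7 libraries in 2 groups and carry no test.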

How the data were processed

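RNA of 7 samples was compared, 4 after FP and 3 after PBS. The authors deposited unnormalized whole-number counts for each gene. Per the submitters' processing notes and the series' design text, the authors mapped reads to GRCm38 with STAR (2.5.0b in the notes, 2.5.0 in the design text) and used featureCounts 1.5.0 with GENCODE M13 for counting; the strand setting is not given in the sources used here, so counts of overlapping genes are less certain. Column names gave the samples. Of 51138 identifiers, 50376 had a symbol, and coordinates and lengths came from GENCODE M21 on the same build.

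Low genes were dropped by filterByExpr, and the groups were compared with edgeR 4.0.16 (quasi-likelihood test, TMM factors) in R 4.3.3, tested on simulated data. Alternatives were other scalings, DESeq2 1.42.0, limma-voom (limma 3.58.1), other filters, a replicate block and leaving out each library; library size over nuclear protein-coding genes was added after seeing the data. Standard errors come from the F statistic. Single values were tested by exact permutation (two-sided), with 0.5 added to counts in ratios. The factors and lists were chosen with earlier results of these data known. Named genes are the 10 factors, up to 3 called and 2 uncalled members of each list, the 2 most abundant members of each marker list, ratio partners and nearest genes. Some genes that this rule names are not reported here.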

Additional observations from a re-analysis of the deposited data

Results flagged for a closer look

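In groups of 4 to 10 samples, a library was looked at again where its gap to the nearest other library took up most of the range of its group (Dixon's criterion at 95%). Only the FP group has 4 libraries; 57 values were examined in it and 4 were singled out, where chance alone gives about 1 in 20. The ratio of Id2 to Id3 was 0.506 in FP replicate 3 and 0.738 to 0.777 in the other FP libraries. Irf8 measured 26.6 CPM in FP replicate 4 and 32.8 to 33.7 CPM in the others. Irf2 measured 169 CPM in FP replicate 3 and 149 to 151 CPM in the others. Cd83 measured 8.06 CPM in FP replicate 3 and 13.6 to 14.5 CPM in the others.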

How the results depend on the processing

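Prdm1, Batf, Tbx21 and Nfil3 passed as higher, and Rora missed the threshold, under all 16 alternatives; the cause of the changes below was not tested. With upper-quartile factors, library size alone and library size over nuclear protein-coding genes (the last chosen after seeing the data), 4823, 5046 and 4637 genes were lower, and 2023 and 2010 were higher under the latter 2. Of the 10 factors, 1 was then lower, Id3 (-0.44, -0.51 and -0.51), Maf did not pass (0.27, 0.21 and 0.20), nor did Gata3 under the latter 2 (0.25 and 0.24). In the same order of scalings, Irf2 measured -0.14, -0.20 and -0.21 and Stat4 -0.037, -0.11 and -0.11; under the latter 2, Tcf12 measured -0.056 and -0.061, Tcf3 -0.051 and -0.059, and Klf2 -0.043 and -0.048. The relatives counted 1, 0 and 0 higher, the tissue and type 2 genes 4 lower under each, and the type 1 genes 2 lower under the latter 2 and 3 higher with library size alone. With library size alone the B cell sum differed by -0.73 and the CD8 T cell sum by -0.086 (log2). Without the filter, E proteins and type 1 genes each counted 2 lower and tissue genes 2 higher; by DESeq2 tissue genes counted 3 higher. With the longest transcript, after PBS Batf took place 3, Maf 4, Id2 5 and Irf4 6, and after FP Batf 1 and Gata3 2.

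Leaving out 1 library at a time gave 4088 (without PBS replicate 3) to 7277 called genes, 2314 to 3888 higher and 1774 (without PBS replicate 3) to 3389 lower, with 1869 without PBS replicate 2. Irf4 ranged from 0.53 to 0.79 and Id2 from -0.18 to 0.047. Junb ran from -0.29 to 0.27, above 0 without FP replicate 3 (0.027), FP replicate 4 (0.034) or PBS replicate 1. BATF and IRF4 partners counted 1 to 3 lower, E proteins 0 to 1 higher, relatives 0 to 2 higher, resting-state factors 0 to 1 higher and tissue genes 1 to 2 higher. The plasma cell sum differed by -0.30 to 0.047. With a library fewer, the exact permutation test of the ratios cannot pass its threshold.

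The values do not settle whether replicate numbers pair the libraries. Same-numbered deviations correlated at 0.121, 0.0848 and 0.221, and different-numbered ones at -0.223 to 0.115. FP replicates 1 and 3 correlated best with their own number, but FP replicate 2 correlated better with PBS replicate 1. With a replicate block, which also leaves out FP replicate 4, 4093 genes were higher and 3746 lower, against 3888 and 3389 without FP replicate 4 and with no block. Junb measured 0.036 with the block, BATF and IRF4 partners, E proteins and resting-state factors each counted 1 higher, tissue genes counted 2 higher, and no call among the 10 factors changed. Depth limits Tbx21 most, and 3 counts correspond to 0.214 to 0.322 CPM.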
